A study of Drosophila melanogaster with 12 samples.

Results

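The 10 genes described here encode heat shock proteins and co-chaperones of *Drosophila melanogaster*. They were chosen by function and symbol, with earlier results of these data known, from the 17023 genes counted in a polysome-seq series of ovaries. They comprise 4 small heat shock proteins (*Hsp22*, *Hsp23*, *Hsp26* and *Hsp27*), a pair of constitutive Hsp70 proteins (*Hsc70-3* and *Hsc70-4*), the Hsp70 partners *stv* and *DnaJ-1*, the Hsp90 gene *Hsp83* and the mitochondrial chaperonin *Hsp60A*. The ovaries came from flies fed yeast and dissected 1 to 3 days after eclosion, and the transgenes of every genotype were driven by NosGAL4, which is active in the germline, so that somatic cells of the same ovaries were not themselves targeted but were still sampled. The genotypes were UAS-Dicer2;NosGAL4 > *aramis* RNAi, UAS-Dicer2;NosGAL4 > *bam* RNAi and NosGAL4 > UAS-*tkv*, so the RNAi lines shared a Dicer2 transgene that UAS-*tkv* did not carry. UAS-*tkv* enriches for germline stem cells (GSCs) and *bam* RNAi for their cystoblast (CB) daughters. From each genotype, mRNA was sequenced from the polysome fraction of a sucrose gradient and from a reserved part of the lysate (input), with 2 libraries for each of the 6 groups. Polysome RNA was extracted with acid phenol-chloroform and input RNA with TRIzol, so fraction and extraction cannot be told apart. The labels do not say whether libraries with the same genotype came from separate pools of flies, and p-values therefore measure the spread between these libraries.

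Chaperones bind unfolded or partly folded proteins. Small heat shock proteins hold unfolding clients without using ATP, Hsp70 proteins bind and release clients in an ATP cycle that J-domain proteins start and nucleotide exchange factors complete, Hsp90 matures kinases and steroid receptors, and chaperonins enclose a client in a barrel. In the fly ovary, several of these genes are transcribed during normal development, in nurse cells among others, without heat, while the inducible Hsp70 genes are largely reserved for stress. An mRNA in the polysome fraction is bound by several ribosomes, and its polysome level relative to input is read as translational efficiency (TE).

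All 12 libraries were counted on the dm6 build, with 3131667 to 15039925 counts per library. Replicates of a group correlated at r = 0.894 to 0.974 over genes on the log2 CPM scale (CPM, read counts scaled to a common library size). The *aramis* gene itself, listed as *ais*, had 8.50 and 11.2 CPM in *aramis* RNAi input, against 28.7 and 20.7 CPM in *bam* RNAi input and 34.2 and 29.5 CPM in UAS-*tkv* input. The other genes targeted or expressed by transgenes were read the same way. *bam* had 0.590 and 0.702 CPM in *aramis* RNAi input, 3.55 and 2.48 CPM in *bam* RNAi input, and 8.21 and 8.23 CPM in UAS-*tkv* input. *tkv* had 107 and 105 CPM in *aramis* RNAi input, 202 and 135 CPM in *bam* RNAi input, and 246 and 271 CPM in UAS-*tkv* input. *Dcr-2* had 199 and 213 CPM in *aramis* RNAi input, 694 and 288 CPM in *bam* RNAi input, and 332 and 356 CPM in UAS-*tkv* input. Neither line labelled UAS-Dicer2 thus had both its input libraries above those of the line without it. Marker genes of other cell types moved with genotype. Summed over 6 germline markers, input levels were 232 and 260 CPM in *aramis* RNAi, 1206 and 743 CPM in *bam* RNAi, and 1070 and 978 CPM in UAS-*tkv*, and all 6 fell in *aramis* RNAi relative to UAS-*tkv*. Over 7 muscle sheath markers the sums were 38610 and 36940 CPM in *aramis* RNAi, 12220 and 21800 CPM in *bam* RNAi, and 5995 and 13360 CPM in UAS-*tkv*, and 5 of the 7 rose. Over 7 hemocyte markers the sums were 5098 and 4785 CPM in *aramis* RNAi, 1694 and 1553 CPM in *bam* RNAi, and 611 and 1196 CPM in UAS-*tkv*, and 6 of the 7 rose. All 8 eggshell and follicle cell markers fell. Their sums were 68.2 and 94.6 CPM in *aramis* RNAi, 219 and 1881 CPM in *bam* RNAi, and 5583 and 4154 CPM in UAS-*tkv*. Over all genes, 10.1% rose and 8.73% fell in *aramis* RNAi input relative to UAS-*tkv* input, by the call defined below. None of the germline, muscle, hemocyte or eggshell markers was at 0 in any input library. The part of these shifts in the chaperone differences was not tested, and in such bulk samples fewer cells of a type and less RNA per cell cannot be told apart.

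Relative to UAS-*tkv*, *aramis* RNAi ovaries had less *Hsp26* and *Hsp27* mRNA and more *stv* mRNA, in input and in polysomes alike, and less *Hsp60A* mRNA in polysomes. A gene was called higher or lower when edgeR's quasi-likelihood test, fitted over the 9745 genes with enough counts, gave a Benjamini-Hochberg adjusted p under 0.05. Of the 9 chaperone genes that could be tested, 3 were called in input, where 18.9% of all genes were called: 1 was higher (10.1% of all genes) and 2 were lower (8.73%). In polysomes 4 were called, where 30.8% of all genes were called, 1 of them higher (17.2%) and 3 lower (13.6%). For increases, 1 of 9 in each fraction was of the order of the share over all genes. For decreases, 2 of 9 in input and 3 of 9 in polysomes were above that share. On so few genes this difference was not tested. With *bam* RNAi as the comparison, 1 of 9 was called in polysomes, where 12.7% of all genes were called (5.83% higher and 6.87% lower), and 0 of 9 in input, where 3.39% were called (0.944% higher and 2.44% lower). Between *bam* RNAi and UAS-*tkv*, 0 of 9 were called in either fraction, where 0.236% of all genes were called in input (0.0308% higher and 0.205% lower) and 0.626% in polysomes (0.421% higher and 0.205% lower). These comparisons share libraries with each other.

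Counting instead the genes whose 2 libraries in one genotype all lay above or all below the 2 in the other, *aramis* RNAi input stood above UAS-*tkv* input for 1 of the 9 genes and below it for 4, against 37.9% and 39.5% of all genes. In polysomes the same comparison gave 3 above and 5 below, against 33.9% and 31.8% of all genes. For *aramis* RNAi and *bam* RNAi, 2 were above and 4 below in input (33.1% and 34.8% of all genes) and 4 above and 3 below in polysomes (31.4% and 24% of all genes). For *bam* RNAi and UAS-*tkv*, 0 were above and 3 below in input (23.1% and 16.2% of all genes), and 1 was above and 3 below in polysomes (15.7% and 14.8% of all genes). With 2 libraries a side, such separation was frequent among all genes and is given below as a description only.

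Levels between the genes were compared per length, as TPM (read counts corrected for exon length and scaled to a common total). *Hsc70-4*, the main constitutive cytosolic Hsp70, had the highest mean in all 6 groups, at 2974 TPM in *aramis* RNAi input, 3129 TPM in *bam* RNAi input and 3506 TPM in UAS-*tkv* input. Its means in polysomes were 1599 TPM in *aramis* RNAi, 1070 TPM in *bam* RNAi and 1292 TPM in UAS-*tkv*. In *bam* RNAi and UAS-*tkv* polysomes its 2 libraries overlapped those of the next gene in the order, *Hsp83* and *Hsp26*, and in the other 4 groups they did not. In the input of every genotype *Hsp83* came next and *Hsp26* after it. In UAS-*tkv* input, *Hsp26* averaged 1561 ± 714 TPM and *Hsp83* 1935 ± 223 TPM (SD, n = 2 each), so these neighbours overlapped. In *aramis* RNAi input *Hsp26* averaged 429 ± 20.9 TPM and *Hsp83* 702 ± 51.8 TPM (SD, n = 2 each), with no overlap. *stv* had the lowest mean of the 9 detected genes in every group, from 14.5 TPM in UAS-*tkv* polysomes to 86.4 TPM in *aramis* RNAi input.

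**Figure D1:**
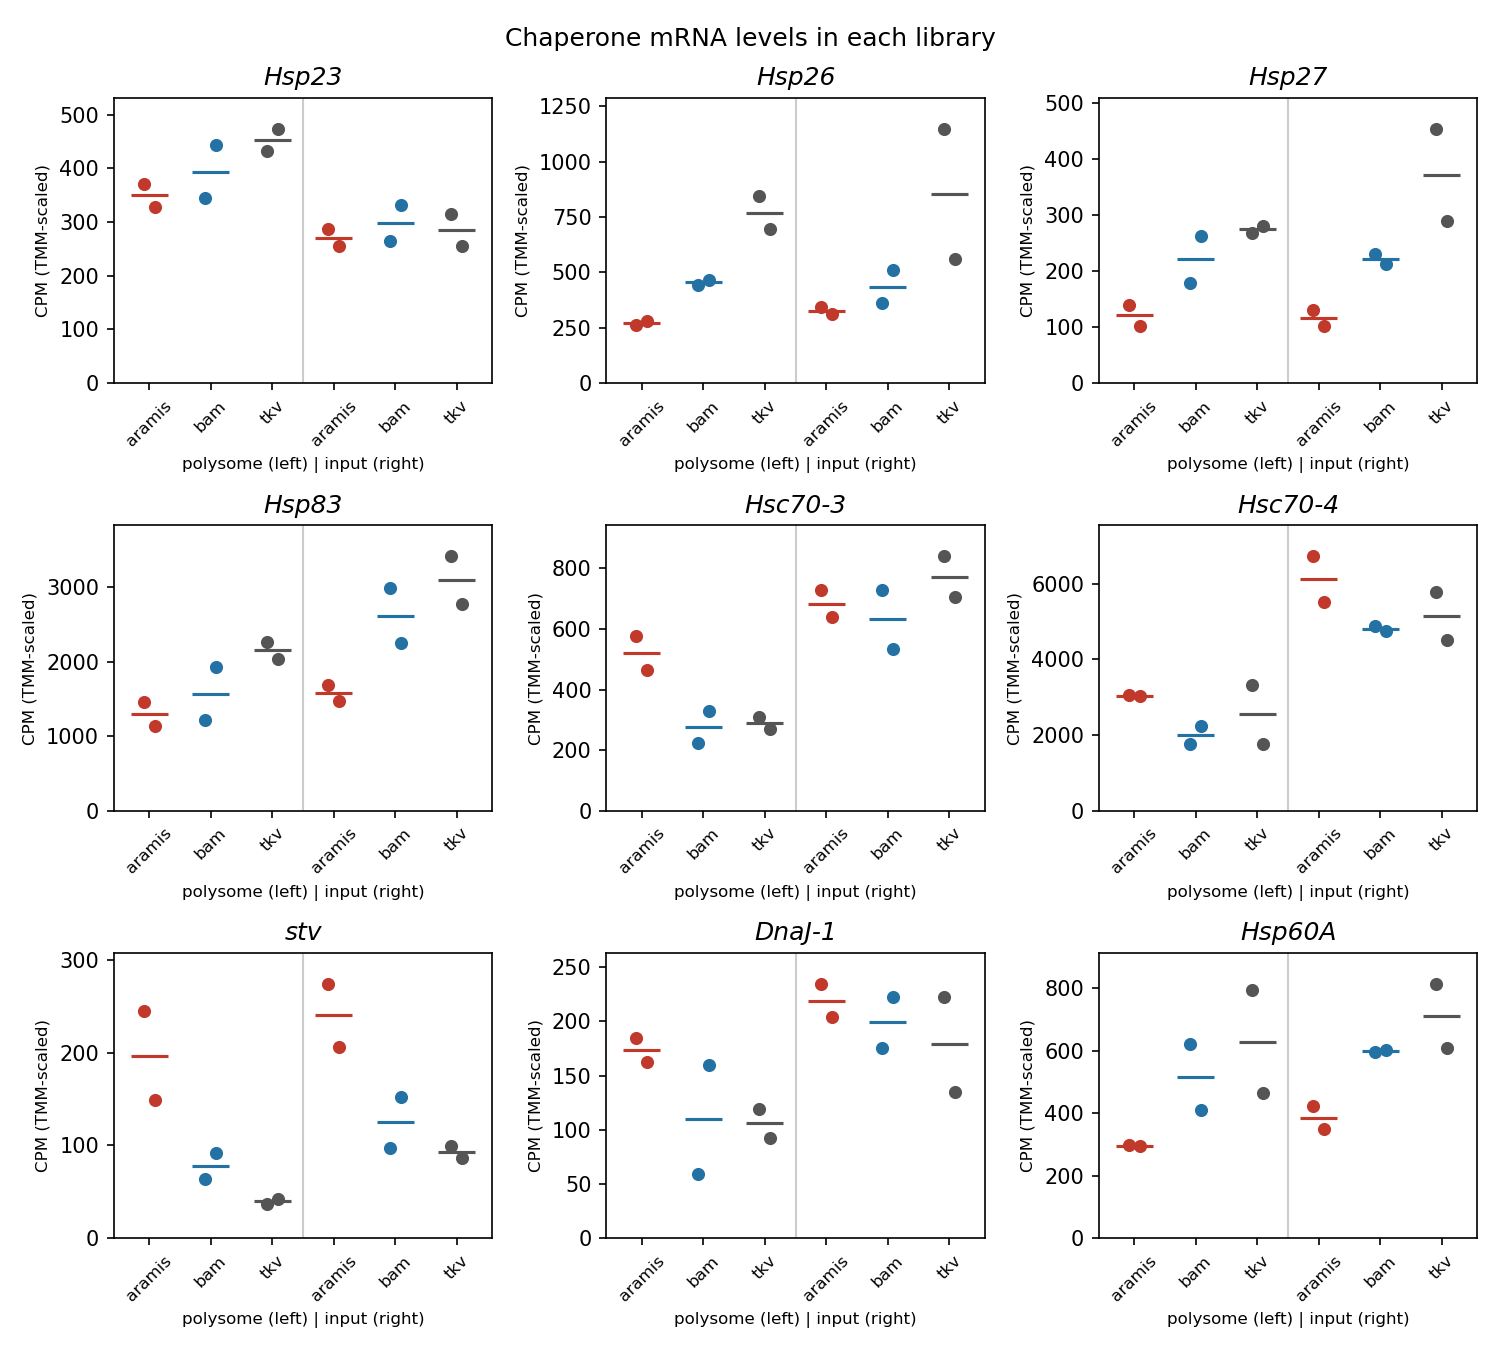
Level of each detected chaperone gene in every library, in CPM on library sizes scaled by the trimmed mean of M-values (TMM). Points are libraries (2 per group), bars are group means, polysome groups stand left of input groups, and aramis, bam and tkv stand for *aramis* RNAi, *bam* RNAi and UAS-*tkv*. *Hsp26* and *Hsp27* sit lowest and *stv* highest in *aramis* RNAi in both fractions, with *Hsp26* at 264 and 281 CPM in *aramis* RNAi polysomes and 844 and 697 CPM in UAS-*tkv* polysomes.

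The 4 small heat shock genes lie within 12764 bases of chromosome arm 3L, at chr3L:9372931-9385694 of dm6, among 9 annotated genes that overlap this stretch. *Hsp22* (chr3L:9372931-9374964), whose product resides in mitochondria, had 0 counts in all 12 libraries, and a count of 0 allows up to 3 counts per library. All 1900 bases of its exons are also exons of *CG4456* on the same strand, which had 4 counts in all, so the counting cannot tell how much *Hsp22* RNA was present, and no fold change or TE is given for it.

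*Hsp26* (chr3L:9376418-9377427, single exon) encodes an ATP-independent holdase known from the nurse cells and oocyte. In input it had 345 and 312 CPM in *aramis* RNAi, 361 and 509 CPM in *bam* RNAi, and 1150 and 562 CPM in UAS-*tkv*. Both *aramis* RNAi libraries were below both UAS-*tkv* libraries, and the UAS-*tkv* pair was spread the widest. The input difference of *aramis* RNAi from UAS-*tkv* was -1.38 ± 0.36 on the log2 scale (± SE), 2.61-fold lower (edgeR adjusted p = 0.0203). This call ended without UAS-*tkv* input replicate 1 (log2 -0.86, adjusted p = 0.241) and on leaving out either *aramis* RNAi input library (adjusted p = 0.132 for replicate 1 and 0.159 for replicate 2). In polysomes *Hsp26* had 264 and 281 CPM in *aramis* RNAi, 445 and 466 CPM in *bam* RNAi, and 844 and 697 CPM in UAS-*tkv*, with no overlap between any of the 3 genotypes. The polysome difference of *aramis* RNAi from UAS-*tkv* was -1.50 ± 0.36 on the log2 scale, 2.83-fold lower (edgeR adjusted p = 0.00947), and was lost without *aramis* RNAi polysome replicate 1 or 2 (adjusted p = 0.0751 and 0.0541). In *bam* RNAi the *Hsp26* differences from UAS-*tkv*, -0.98 in input and -0.76 in polysomes, were not called (edgeR adjusted p = 0.699 and 0.358).

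*Hsp27* (chr3L:9384063-9385694, single exon), another small heat shock protein, shared this pattern. It had 131 and 103 CPM in *aramis* RNAi input, 231 and 213 CPM in *bam* RNAi input, and 455 and 290 CPM in UAS-*tkv* input. The 3 genotypes did not overlap. Relative to UAS-*tkv*, *aramis* RNAi input held 3.18-fold less *Hsp27* (log2 -1.67 ± 0.32, edgeR adjusted p = 0.00582). The adjusted p was 0.0741 without UAS-*tkv* input replicate 1, and 0.0503 and 0.0699 without *aramis* RNAi input replicate 1 and 2. Polysomes held 140 and 102 CPM in *aramis* RNAi, 179 and 264 CPM in *bam* RNAi, and 269 and 281 CPM in UAS-*tkv*. Relative to UAS-*tkv*, the *aramis* RNAi polysome level was 2.26-fold lower (log2 -1.18 ± 0.31, edgeR adjusted p = 0.0157), a call lost without *aramis* RNAi polysome replicate 2 (adjusted p = 0.121). Against *bam* RNAi the *Hsp27* differences of *aramis* RNAi, -0.92 in input and -0.87 in polysomes, missed the threshold in edgeR (adjusted p = 0.112 and 0.0842) and passed it in DESeq2 (adjusted p = 0.0181 and 0.0112). Of the *Hsp27* exons, 3% (49 bases) overlap *CR43483* on the opposite strand, which had 3 counts in all 12 libraries.

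*Hsp23* (chr3L:9381882-9382765) lies between *Hsp26* and *Hsp27*, and its libraries overlapped between all genotypes in input. It had 286 and 255 CPM in *aramis* RNAi input, 264 and 331 CPM in *bam* RNAi input, and 315 and 256 CPM in UAS-*tkv* input. In polysomes it had 372 and 328 CPM in *aramis* RNAi, 345 and 443 CPM in *bam* RNAi, and 433 and 474 CPM in UAS-*tkv*. No *Hsp23* difference between genotypes was called in either fraction, with edgeR adjusted p-values of 0.866 in input and 0.297 in polysomes for *aramis* RNAi against UAS-*tkv*. The *Hsp26* and *Hsp27* decreases thus stood on either side of a gene of the same cluster that was not called. The 6 germline markers fell in the same input comparison (median log2 -2.63, against -0.04 over all genes), and so did the 8 eggshell and follicle cell markers. The eggshell sums were 68.2 and 94.6 CPM in *aramis* RNAi input, 219 and 1881 CPM in *bam* RNAi input, and 5583 and 4154 CPM in UAS-*tkv* input. The part of either marker set in the *Hsp26* and *Hsp27* decreases was not tested.

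*stv* (starvin, chr3L:13477541-13483515) encodes the fly BAG-domain protein, a nucleotide exchange factor of Hsp70 known for its role in muscle maintenance. In polysomes it had 245 and 149 CPM in *aramis* RNAi, 63.3 and 92.1 CPM in *bam* RNAi, and 37.3 and 42.7 CPM in UAS-*tkv*. No libraries of different genotypes overlapped. The polysome level in *aramis* RNAi was 4.93-fold that in UAS-*tkv* (log2 2.30 ± 0.35, edgeR adjusted p = 0.00129). It was called with any 1 of the 4 libraries of the comparison left out (adjusted p = 0.00248 to 0.019). Relative to *bam* RNAi it was 2.53-fold higher (log2 1.34 ± 0.34, edgeR adjusted p = 0.0318). That call ended without *aramis* RNAi polysome replicate 1 (log2 0.88, adjusted p = 0.255) or 2 (0.0636), without *bam* RNAi polysome replicate 1 (0.158), without any of the 4 *aramis* RNAi and UAS-*tkv* input libraries (0.052 to 0.0563), and in a fit of the 4 libraries of the comparison alone (0.153).

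In input *stv* had 275 and 207 CPM in *aramis* RNAi, 97.3 and 153 CPM in *bam* RNAi, and 99.1 and 86.5 CPM in UAS-*tkv*. Both *aramis* RNAi libraries were above all others. The input level in *aramis* RNAi was 2.59-fold that in UAS-*tkv* (log2 1.38 ± 0.34, edgeR adjusted p = 0.0167), and this call ended without UAS-*tkv* input replicate 1 or 2 (adjusted p = 0.137 and 0.116) or *aramis* RNAi input replicate 1 (0.145). Against *bam* RNAi input the difference was 0.95 ± 0.33 on the log2 scale, not called in edgeR (adjusted p = 0.126) and called in DESeq2 (adjusted p = 0.0386). The *bam* RNAi difference from UAS-*tkv* in polysomes, 0.96 ± 0.34, was not called either (edgeR adjusted p = 0.242). In polysomes, 6 of 7 muscle sheath markers and 7 of 7 hemocyte markers rose in *aramis* RNAi relative to UAS-*tkv* (median log2 2.28 and 3.43). Over all genes, 17.2% rose in that comparison. The muscle sums were 33420 and 31460 CPM in *aramis* RNAi polysomes, against 5067 and 8910 CPM in UAS-*tkv* polysomes, and their part in the *stv* increase was not tested.

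*Hsc70-3* (chrX:11801696-11807117), the Hsp70 of the endoplasmic reticulum (ER) known as BiP, had 576 and 465 CPM in *aramis* RNAi polysomes, 224 and 328 CPM in *bam* RNAi polysomes, and 310 and 270 CPM in UAS-*tkv* polysomes. The *aramis* RNAi polysome libraries stood above the rest, by 0.85 ± 0.31 on the log2 scale over UAS-*tkv* and by 0.92 ± 0.31 over *bam* RNAi, and both differences missed the threshold in edgeR (adjusted p = 0.0572 and 0.0706) and passed it in DESeq2 (adjusted p = 0.00485 and 0.00831). In input the genotypes overlapped, with 729 and 639 CPM in *aramis* RNAi, 730 and 534 CPM in *bam* RNAi, and 841 and 704 CPM in UAS-*tkv*.

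*Hsc70-4* (chr3R:15242687-15246614) had 6736 and 5511 CPM in *aramis* RNAi input, 4879 and 4750 CPM in *bam* RNAi input, and 5779 and 4506 CPM in UAS-*tkv* input. In polysomes it had 3052 and 3033 CPM in *aramis* RNAi, 1754 and 2237 CPM in *bam* RNAi, and 3336 and 1777 CPM in UAS-*tkv*. No genotype difference of *Hsc70-4* was called in either fraction. *DnaJ-1* (chr3L:5750029-5752189), the J-domain partner of Hsp70 in the cytosol and nucleus, had 185 and 162 CPM in *aramis* RNAi polysomes, 59.7 and 160 CPM in *bam* RNAi polysomes, and 119 and 92.3 CPM in UAS-*tkv* polysomes. In input *DnaJ-1* had 235 and 204 CPM in *aramis* RNAi, 176 and 223 CPM in *bam* RNAi, and 222 and 135 CPM in UAS-*tkv*. None of its genotype differences was called either.

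*Hsp83* (chr3L:3192969-3197059), the cytosolic Hsp90, had 1683 and 1468 CPM in *aramis* RNAi input, 2980 and 2250 CPM in *bam* RNAi input, and 3414 and 2770 CPM in UAS-*tkv* input. The *aramis* RNAi libraries were the lowest, and the difference from UAS-*tkv*, -0.97 ± 0.39 on the log2 scale, was not called (edgeR adjusted p = 0.105). DESeq2 called it (adjusted p = 0.00188). In polysomes *Hsp83* had 1463 and 1138 CPM in *aramis* RNAi, 1212 and 1928 CPM in *bam* RNAi, and 2267 and 2037 CPM in UAS-*tkv*, and the difference of *aramis* RNAi from UAS-*tkv* was -0.73 ± 0.39, not called in edgeR (adjusted p = 0.168) and called in DESeq2 (adjusted p = 0.0193). Its exons overlap *CG14966* on the opposite strand over 15 bases.

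*Hsp60A* (chrX:11108482-11112308), the barrel subunit of the mitochondrial chaperonin, had 297 and 294 CPM in *aramis* RNAi polysomes, 623 and 409 CPM in *bam* RNAi polysomes, and 796 and 464 CPM in UAS-*tkv* polysomes. The *aramis* RNAi libraries lay below all others. Relative to UAS-*tkv*, the *aramis* RNAi polysome level was 2.13-fold lower (log2 -1.09 ± 0.34, edgeR adjusted p = 0.0322). The call ended without UAS-*tkv* polysome replicate 1 (log2 -0.68, adjusted p = 0.204), *aramis* RNAi polysome replicate 1 or 2 (0.14 and 0.132) or *aramis* RNAi input replicate 1 or 2 (0.0595 and 0.0603), and in a fit of the 4 libraries of the comparison alone (0.0543). In input it had 423 and 349 CPM in *aramis* RNAi, 598 and 604 CPM in *bam* RNAi, and 816 and 610 CPM in UAS-*tkv*. The input difference of *aramis* RNAi from UAS-*tkv*, -0.88 ± 0.34, was not called in edgeR (adjusted p = 0.0938) and was called in DESeq2 (adjusted p = 0.0388).

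**Figure D2:**
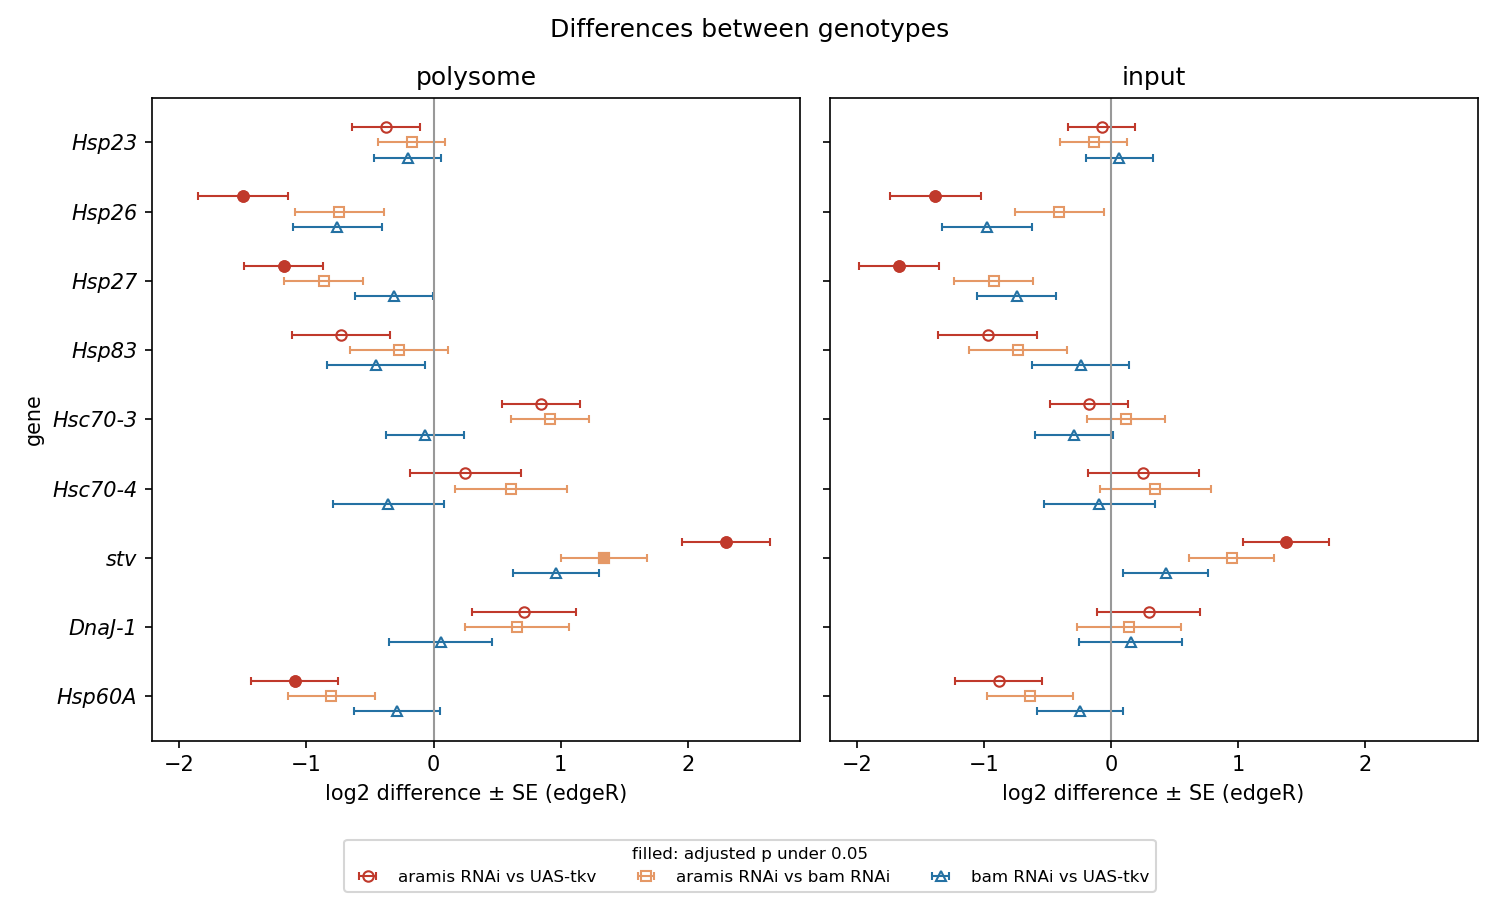
Log2 difference between genotypes of the 9 tested genes in polysomes (left) and input (right), from the edgeR fit of 12 libraries. Error bars are 1 standard error and filled symbols mark an adjusted p under 0.05. *stv* lies to the right of 0 (2.30 in polysomes and 1.38 in input for *aramis* RNAi over UAS-*tkv*), while *Hsp26* and *Hsp27* lie to the left in both fractions.

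With 0 of 9 genes called in input between *aramis* RNAi and *bam* RNAi, 2 had an unadjusted p under 0.05 (*Hsp27* and *stv*), against 22.4% of all genes, and DESeq2 called 3, against 14% of the genes to which it gave an adjusted p. For *bam* RNAi against UAS-*tkv*, where edgeR called 0, 2 had an unadjusted p under 0.05 in input (*Hsp26* and *Hsp27*), against 5.8% of all genes, and 1 in polysomes (*stv*), against 14.2%, and DESeq2 called 0 in both fractions (1.17% and 5.32% of genes).

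The wider set of fly chaperone genes was read from lists by family. Of 12 small heat shock proteins, 8 had enough counts to be tested, and in input 2 rose and 3 fell in *aramis* RNAi relative to UAS-*tkv*, where 10.1% of all genes rose and 8.73% fell, with a median log2 difference of 0.00. Besides *Hsp26* and *Hsp27*, *Hsp67Bc* fell (log2 -2.27 ± 0.61, edgeR adjusted p = 0.0236), with 9.21 and 9.13 CPM in *aramis* RNAi input, against 59.9 and 28.7 CPM in UAS-*tkv* input. The alpha-crystallin family gene *l(2)efl* rose, with 254 and 222 CPM in *aramis* RNAi input, against 42.3 and 76.2 CPM in UAS-*tkv* input (log2 2.01 ± 0.39, edgeR adjusted p = 0.00667). *CG14207*, another small heat shock protein gene, also rose, with 508 and 428 CPM in *aramis* RNAi input, against 123 and 169 CPM in UAS-*tkv* input (log2 1.68 ± 0.34, edgeR adjusted p = 0.00775). The 5 input calls came to 0 without UAS-*tkv* input replicate 1 or without *aramis* RNAi input replicate 1, and to 2, both increases, without *aramis* RNAi input replicate 2. In polysomes 2 rose (*CG14207*, log2 1.60 ± 0.34, edgeR adjusted p = 0.00562, and *l(2)efl*) and 2 fell (*Hsp26* and *Hsp27*), where 17.2% of all genes rose and 13.6% fell. The *CG14207* polysome call ended without UAS-*tkv* polysome replicate 1 (adjusted p = 0.052) or *aramis* RNAi polysome replicate 1 (0.0557). The 4 polysome calls came to 1 without *aramis* RNAi polysome replicate 1 or 2, to 2 without UAS-*tkv* polysome replicate 1 and to 6 without UAS-*tkv* polysome replicate 2. *l(2)efl* is named there after its values were seen, at 355 and 361 CPM in *aramis* RNAi polysomes, against 126 and 168 CPM in UAS-*tkv* polysomes.

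The co-chaperones with the lowest adjusted p besides *stv* were *CG5001* and *Fkbp59*. *CG5001*, a J-domain protein gene, had 143 and 128 CPM in *aramis* RNAi input, against 27.8 and 38.3 CPM in UAS-*tkv* input (log2 2.04 ± 0.35, edgeR adjusted p = 0.0038), and 141 and 147 CPM in *aramis* RNAi polysomes, against 39.0 and 29.0 CPM in UAS-*tkv* polysomes (log2 2.08 ± 0.35, edgeR adjusted p = 0.00192). Without UAS-*tkv* input replicate 1 the input call ended (adjusted p = 0.0744), while the polysome call held in all 17 alternative fits. In polysomes *CG5001* was also above *bam* RNAi, at 34.9 and 64.5 CPM there (log2 1.52 ± 0.34, edgeR adjusted p = 0.023), a call lost in 4 of 17 alternative fits. *Fkbp59*, an immunophilin that binds Hsp90, had 150 and 148 CPM in *aramis* RNAi input, 328 and 314 CPM in *bam* RNAi input, and 367 and 322 CPM in UAS-*tkv* input. It fell relative to UAS-*tkv* in input (log2 -1.21 ± 0.26, edgeR adjusted p = 0.00965) and in polysomes (log2 -1.62 ± 0.26, edgeR adjusted p = 0.00158). Relative to *bam* RNAi it fell by 1.10 ± 0.26 in input and by 1.08 ± 0.26 in polysomes on the log2 scale (edgeR adjusted p = 0.0425 and 0.0276). The polysome decrease from UAS-*tkv* held in all 17 alternative fits but, at 3.08-fold, does not reach a threshold of 4-fold. The other *Fkbp59* calls were lost in 3 of 17 fits for input against UAS-*tkv*, 8 for input against *bam* RNAi and 5 for polysomes against *bam* RNAi. Of the 15 J-domain genes tested, 2 rose and 0 fell in input (median log2 -0.06), and 5 rose and 1 fell in polysomes (median 0.32), relative to UAS-*tkv*, where 10.1% of all genes rose and 8.73% fell in input and 17.2% rose and 13.6% fell in polysomes. The gene that fell was *CG10565* (log2 -1.01 ± 0.25, edgeR adjusted p = 0.0108), a call lost without UAS-*tkv* polysome replicate 1 (adjusted p = 0.0541) or *aramis* RNAi polysome replicate 2 (0.0922). Without UAS-*tkv* polysome replicate 1 or 2 the 5 increases came to 2 and 3, and without *aramis* RNAi polysome replicate 1 to 1.

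Chaperonin genes were called between genotypes in polysomes, while their TE differences were not called. Of 13 subunits of the cytosolic chaperonin CCT and of prefoldin, 7 fell in *aramis* RNAi polysomes relative to UAS-*tkv* polysomes (median log2 -0.79, against 0.02 over all genes), where 13.6% of all genes were called lower. In input edgeR called 0 of the 13 (median -0.37), where it called 18.9% of all genes. Of the 13, 3 had an unadjusted p under 0.05, against 32.2% of all genes. DESeq2 called 1, against 28.1% of the genes to which it gave an adjusted p. *CCT4* had 334 and 324 CPM in *aramis* RNAi polysomes, 1011 and 575 CPM in *bam* RNAi polysomes, and 901 and 725 CPM in UAS-*tkv* polysomes. *CCT5* had 320 and 331 CPM in *aramis* RNAi polysomes, 949 and 521 CPM in *bam* RNAi polysomes, and 962 and 703 CPM in UAS-*tkv* polysomes. *CCT4* and *CCT5* also fell relative to *bam* RNAi polysomes (log2 -1.27 ± 0.33 and -1.18 ± 0.33, edgeR adjusted p = 0.0356 and 0.0441), calls lost in 8 and 10 of 17 alternative fits. The 7 decreases from UAS-*tkv* came to 0 without *aramis* RNAi polysome replicate 1 or 2, and to 3 and 4 without UAS-*tkv* polysome replicate 1 and 2. They came to 4 without *aramis* RNAi input replicate 1 or 2. The TE difference of *aramis* RNAi from UAS-*tkv* was called for none of the 13 genes, at edgeR adjusted p-values of 0.652 or more. It was -0.60 ± 0.47 for *CCT4* and -0.58 ± 0.47 for *CCT5* on the log2 scale (edgeR adjusted p = 0.708 and 0.721). Of 3 mitochondrial chaperonin genes tested, *Hsp60A* and *CG11267*, the gene of the Hsp10-type lid, fell in polysomes relative to UAS-*tkv*. *CG11267* had 165 and 225 CPM in *aramis* RNAi polysomes, against 458 and 583 CPM in UAS-*tkv* polysomes (log2 -1.42 ± 0.33, edgeR adjusted p = 0.00866), a call lost without *aramis* RNAi polysome replicate 1 (adjusted p = 0.089). Its TE difference of *aramis* RNAi from UAS-*tkv* was not called (log2 -0.41 ± 0.46, edgeR adjusted p = 0.818).

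Of 11 genes of ER folding and the unfolded protein response, 2 rose in *aramis* RNAi input relative to UAS-*tkv* (*prtp* and *Xbp1*, named after their values were seen), where 10.1% of all genes rose. In polysomes 2 rose (*Xbp1* and *Atf6*), where 17.2% of all genes rose. Summed over the 11 genes, input levels were 6502 and 5742 CPM in *aramis* RNAi, against 3961 and 3892 CPM in UAS-*tkv*. The polysome sums were 5708 and 5017 CPM in *aramis* RNAi, against 4248 and 3608 CPM in UAS-*tkv*. *Atf6*, an ER stress sensor, had 72.0 and 61.4 CPM in *aramis* RNAi polysomes, against 16.0 and 32.3 CPM in UAS-*tkv* polysomes (log2 1.48 ± 0.37, edgeR adjusted p = 0.012). The *Atf6* call ended without UAS-*tkv* polysome replicate 1 (log2 1.02) or *aramis* RNAi polysome replicate 1, both at an adjusted p of 0.09. *Hsf*, the gene of the heat shock transcription factor, had 57.3 and 57.6 CPM in *aramis* RNAi input, 103 and 82.7 CPM in *bam* RNAi input, and 121 and 101 CPM in UAS-*tkv* input, and was not called (log2 -0.95 ± 0.39 against UAS-*tkv*, edgeR adjusted p = 0.11).

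Of the stress-inducible Hsp70 genes, *Hsp68* had 145 and 141 CPM in *aramis* RNAi input, against 158 and 99.3 CPM in UAS-*tkv* input. The 6 near-identical *Hsp70* paralogs could have had their reads split between them, and their single values are uncertain. *Hsp70Bb*, the most abundant of them in input, had 32.9 and 30.4 CPM in *aramis* RNAi input, against 20.5 and 11.5 CPM in UAS-*tkv* input. Of 6 inducible Hsp70 genes tested, edgeR called 0 in input, where it called 18.9% of all genes. Of these 6, 0 had an unadjusted p under 0.05, against 32.2% of all genes. DESeq2 called 0, against 28.1% of the genes to which it gave an adjusted p. In polysomes 1 of 6, *Hsp70Bc*, rose relative to UAS-*tkv*, near the 17.2% of all genes that rose. It had 11.9 and 17.5 CPM in *aramis* RNAi, against 2.98 and 3.69 CPM in UAS-*tkv* (log2 2.13 ± 0.66, edgeR adjusted p = 0.0297). Fits with a library left out are not given here for this paralog. Summed over the 7 inducible Hsp70 genes, polysome levels were 166 and 170 CPM in *aramis* RNAi, against 143 and 82.2 CPM in UAS-*tkv*. No list was tested as a set.

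**Figure D3:**
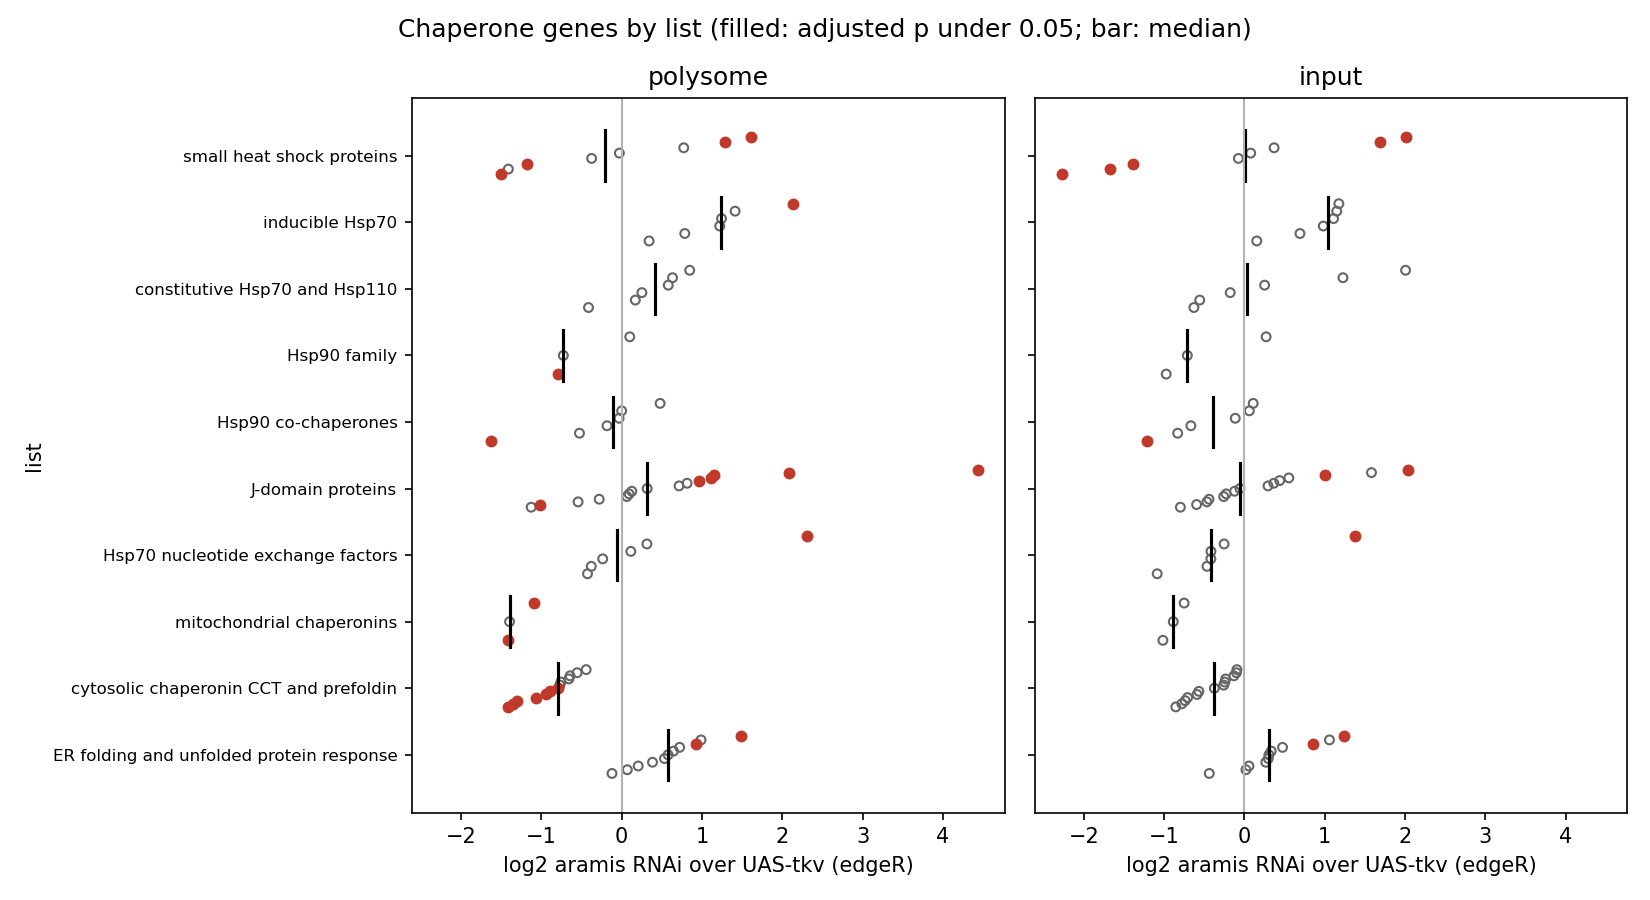
Log2 difference of *aramis* RNAi over UAS-*tkv* for each tested gene of 10 chaperone lists, in polysomes (left) and input (right). Points are genes, filled points have an adjusted p under 0.05, and black bars are list medians. The 13 CCT and prefoldin genes lie below 0 in both fractions, with medians of -0.79 in polysomes and -0.37 in input, while small heat shock genes lie on both sides.

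The log2 difference of polysome from input lay below 0 for 7 of the 9 genes in *aramis* RNAi, 7 in *bam* RNAi and 8 in UAS-*tkv*, and only *Hsp23* lay above 0 in all 3 genotypes. The medians of the 9 genes were -0.288, -0.68 and -0.523 in that order, against 0, -0.15 and -0.014 over all genes. Relative to input, 2 of 9 genes were called in UAS-*tkv* polysomes, both lower, where 8.11% of all genes were called (1.97% higher and 6.14% lower), and 0 of 9 were called in *bam* RNAi or *aramis* RNAi polysomes, where 0.482% and 0.0103% of all genes were called in either direction. In *aramis* RNAi both polysome libraries lay above both input libraries for 1 of the 9 genes and below them for 6 (23.9% and 25.2% of all genes). The same counts were 1 and 5 in *bam* RNAi (19% and 28.6% of all genes) and 1 and 6 in UAS-*tkv* (26.5% and 31.1% of all genes). *Hsc70-3* had 310 and 270 CPM in UAS-*tkv* polysomes, against 841 and 704 CPM in UAS-*tkv* input (log2 -1.42 ± 0.31, edgeR adjusted p = 0.0213). *stv* had 37.3 and 42.7 CPM in UAS-*tkv* polysomes, against 99.1 and 86.5 CPM in UAS-*tkv* input (log2 -1.22 ± 0.34, edgeR adjusted p = 0.0494). The *Hsc70-3* and *stv* calls both ended without any 1 of the 4 UAS-*tkv* libraries, at adjusted p-values of 0.0544 to 0.135 for *Hsc70-3* and 0.136 to 0.218 for *stv*. The *stv* call also ended without *aramis* RNAi input replicate 1 or 2 (0.0818 and 0.0797), without *aramis* RNAi polysome replicate 2 (0.0534) and in a fit of the 4 UAS-*tkv* libraries (0.0543). *Hsp23* went the other way in UAS-*tkv*, by 0.67 ± 0.27 on the log2 scale, not called in edgeR (adjusted p = 0.13) and called in DESeq2 (adjusted p = 0.0194).

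The most abundant member, *Hsc70-4*, differed between polysomes and input by -1.01 ± 0.44 in *aramis* RNAi, -1.27 ± 0.44 in *bam* RNAi and -1.01 ± 0.44 in UAS-*tkv*. None of these differences was called in edgeR (adjusted p = 0.854, 0.142 and 0.164), and DESeq2 called those in *bam* RNAi and UAS-*tkv* (adjusted p = 0.00392 and 0.0124). In *bam* RNAi, *Hsc70-3* was -1.20 ± 0.31 in polysomes relative to input (edgeR adjusted p = 0.0911). Where edgeR called 0 genes, 2 had an unadjusted p under 0.05 in *bam* RNAi (*Hsc70-3* and *Hsc70-4*), against 20.8% of all genes, and 1 in *aramis* RNAi (*Hsc70-4*), against 5.76%. DESeq2 called those same 2 in *bam* RNAi, where it called 14.1% of genes, and 0 in *aramis* RNAi, where it called 1.72%. Among the other genes of the chaperone lists, *Atf6* (log2 -1.57 ± 0.37) and *Hsp110* (log2 -1.14 ± 0.30), the gene of an Hsp70 nucleotide exchange factor, were lower in UAS-*tkv* polysomes than in UAS-*tkv* input (edgeR adjusted p = 0.0282 and 0.0395). These calls were lost in 6 and 10 of 17 alternative fits.

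**Figure D4:**
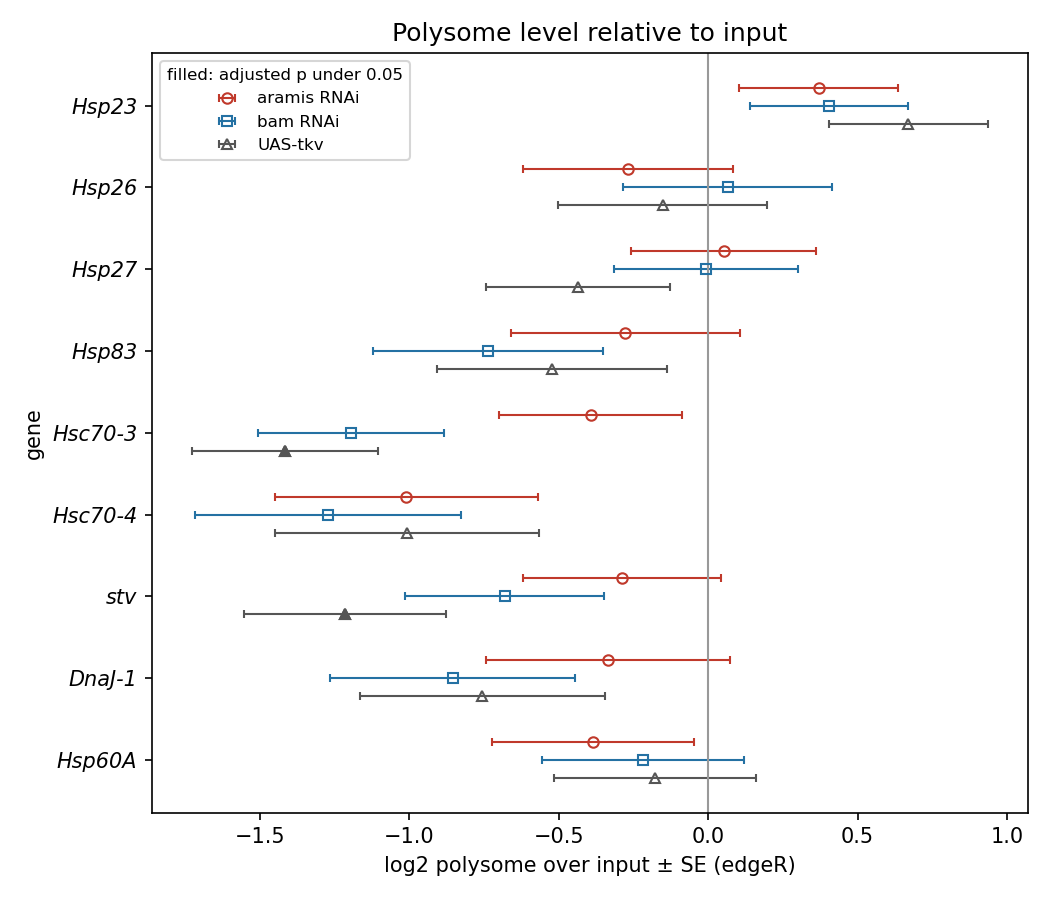
Log2 polysome level over input level of the 9 tested genes in *aramis* RNAi, *bam* RNAi and UAS-*tkv*, from the edgeR fit of 12 libraries. Error bars are 1 standard error and filled symbols mark an adjusted p under 0.05, which *Hsc70-3* (-1.42) and *stv* (-1.22) reached in UAS-*tkv*.

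TE was also taken per replicate number as the log2 ratio of polysome over input TPM with 1 TPM added to each, and is given here relative to the median over all tested genes. That median itself was -1.23 and 0.32 in the 2 *bam* RNAi pairs, so unadjusted ratios were not comparable between them. For *Hsc70-3* the relative TE was -0.31 and -0.42 in *aramis* RNAi, -1.65 and -0.65 in *bam* RNAi, and -1.45 and -1.47 in UAS-*tkv*. For *stv* it was -0.14 and -0.44 in *aramis* RNAi, -0.52 and -0.66 in *bam* RNAi, and -1.36 and -1.05 in UAS-*tkv*. For *Hsc70-4* it lay between -1.44 and -0.81 in all 6 pairs. *Hsp23*, by contrast, was 0.39 to 0.80 above the median in all 6.

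The difference in TE between genotypes was tested as an interaction of fraction and genotype. Of the 9 genes, edgeR called 0 in *aramis* RNAi against UAS-*tkv*, where it called 0.0103% of all genes (1 gene), and 0 in *aramis* RNAi against *bam* RNAi, where it called 0 genes. It also called 0 of 9 in *bam* RNAi against UAS-*tkv*, where again 0.0103% of all genes (1 gene) were called. *Hsc70-3* had the lowest unadjusted p, with an *aramis* RNAi TE that exceeded that of UAS-*tkv* by 1.02 ± 0.43 on the log2 scale (unadjusted p = 0.0373 and adjusted p = 0.652 in edgeR). It was the 1 gene of 9 with an unadjusted p under 0.05 in that comparison, near the 7.51% of all genes. In each of the other TE comparisons 0 of 9 had one (3.15% of all genes for *aramis* RNAi against *bam* RNAi and 2.22% for *bam* RNAi against UAS-*tkv*), and DESeq2 called 0 in all 3. For *stv* the *aramis* RNAi TE exceeded that of UAS-*tkv* by 0.93 ± 0.47 (edgeR adjusted p = 0.652). The labels do not say whether libraries of the same genotype and replicate number shared a lysate. With such libraries as a replicate block, the TE differences were 1.01 for *Hsc70-3* and 0.90 for *stv*, both at an edgeR adjusted p of 0.73. The larger *stv* difference in polysomes (2.30) than in input (1.38) between *aramis* RNAi and UAS-*tkv* was therefore not resolved from their errors.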

How the data were processed

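The authors deposited a table of raw read counts per gene for each of the 12 libraries. Per the labels these were made with HISAT2 2.1.0 and featureCounts 1.4.6 on dm6. The library kit keeps strand, and the strand setting, the treatment of multi-mapped reads and the annotation release of the counting are not given in the sources used here. Of 17023 gene identifiers, 16647 matched the BDGP6 annotation, from which names, dm6 coordinates and exon lengths were taken. Genes with low counts were removed by filterByExpr (7278 removed, 9745 kept). The deposited counts were fitted in edgeR 4.0.16 (R 4.3.3) with TMM scaling as 6 group means (6 residual degrees of freedom) and tested by quasi-likelihood, with Benjamini-Hochberg adjustment over all genes kept. CPM uses TMM-scaled library sizes. TPM uses union exon length. The alternatives were RLE size factors, no filter, DESeq2 1.42.0, only the libraries of a comparison, a replicate block, each library left out, thresholds of over 4-fold for levels and over 2-fold at an unadjusted p for TE and for polysome against input, and TE pseudocounts of 0.1 and 5. The fit was also run on simulated counts, whose outcome is not given here and is not used as support for any call. The members and lists were chosen with earlier results of these data known. The genes named beyond the members were up to 3 called per direction and comparison, by adjusted p, from the chaperone lists, with *Hsf* and the inducible Hsp70 genes. Of the list symbols, *Hop*, *Ahsa1*, *l(2)tid*, *roe1* and *nos* matched no identifier, and *CCT8*, *Pdi*, *vas*, *PPO1*, *wupA* and *wg* were not analysed here. Other marker lists were read as well. In input 1 of 7 escort, cap and somatic gonad markers rose and 1 fell, and 2 of 6 fat body markers rose and 0 fell, in *aramis* RNAi relative to UAS-*tkv*. Over all genes, 10.1% rose and 8.73% fell there. Promoters and protein sequences were not analysed here.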

Additional observations from a re-analysis of the deposited data

How the results depend on the processing

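With 2 libraries per group, 9 of the 10 calls ended with at least 1 library left out (the exception was *stv* in polysomes, *aramis* RNAi against UAS-*tkv*), and the cause of the changes below was not tested. In input, the 3 chaperone calls of *aramis* RNAi against UAS-*tkv* became 5 with DESeq2, 5 with only the libraries of the comparison and 0 over 4-fold, and ranged from 0 to 5 with 1 library left out. The 0 calls against *bam* RNAi became 3 with DESeq2, 1 with only the libraries of the comparison and 0 to 1 with 1 library left out. In polysomes, the 4 calls against UAS-*tkv* became 6 with DESeq2 (*Hsp83* and *Hsc70-3* added), 1 over 4-fold (*stv*), and 1 to 5 with 1 library left out. The 1 call against *bam* RNAi became 2 with RLE size factors, 2 with no filter, 4 with DESeq2, 0 with only the libraries of the comparison, 0 over 4-fold and 0 to 4 with 1 library left out. For *bam* RNAi against UAS-*tkv* polysomes, 0 became 1 with no filter. For polysome against input, 0 became 1 at over 2-fold and an unadjusted p in *aramis* RNAi. In *bam* RNAi 0 became 2 with DESeq2, 2 at over 2-fold and 0 to 4 with 1 library left out. In UAS-*tkv* 2 became 4 with DESeq2, 1 with only its libraries and 0 to 2 with 1 library left out. For TE, 0 became 1 at over 2-fold and an unadjusted p in *aramis* RNAi against UAS-*tkv*. Of all genes given an adjusted p, DESeq2 called 28.1% in input and 39.4% in polysomes for *aramis* RNAi against UAS-*tkv*. Against *bam* RNAi it called 14% in input and 25.1% in polysomes. For polysome against input it called 14.1% in *bam* RNAi and 17.6% in UAS-*tkv*. Shares of all genes called under the other alternatives are not given here. Whether those counts of chaperone calls followed the calls over all genes therefore cannot be told.

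Of 108 differences of the chaperone genes, 10 were called, and 0 of these 10 changed sign under any alternative. Among the rest, 35 changed sign under some alternative, the largest of them 0.52 on the log2 scale. Only 39 differences, those with an unadjusted p under 0.1 or called under any alternative, were traced setting by setting, a limit chosen after the values were seen. The other pseudocounts moved a TE mean by at most 0.22, with *stv* in UAS-*tkv* at -1.41 and *DnaJ-1* at -1.14 under a pseudocount of 5.

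The replicate block was the replicate number between genotypes, and genotype with replicate number for TE and for polysome against input. It left each count of called chaperone genes as it was, at 3, 0 and 0 in input, 4, 1 and 0 in polysomes and 0 in each TE comparison. For polysome against input the counts stayed at 2, 0 and 0 within UAS-*tkv*, within *bam* RNAi and within *aramis* RNAi. The block ended the *Hsp110* call in UAS-*tkv* (edgeR adjusted p = 0.0628). Replicate differences of polysome and input libraries correlated at 0.44 in *aramis* RNAi, -0.04 in *bam* RNAi and 0.58 in UAS-*tkv*, and the labels do not tie an input library to the polysome library of the same number, so the fit without the block was kept as the main one.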
